A study of Mus musculus with 12 samples.

Results

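The genes examined here encode the proteins of the cytosolic ribosome, chosen by symbol: every probe set whose gene symbol starts with Rpl or Rps and a digit, or is Rplp0, Rplp1, Rplp2 or Rpsa. Kinases of ribosomal protein S6 and pseudogene symbols were left out, and each gene was read from the probe set with the highest mean. The rule found 50 genes among 18193 named genes on the array, read by 106 probe sets. They comprise 43 canonical subunits (21 of the small subunit, 20 of the large subunit and the stalk proteins Rplp0 and Rplp2), 6 paralogs (Rpl3l, Rpl7l1, Rpl22l1, Rpl39l, Rps4l and Rps27l) and Rps19bp1, which is not a subunit but a binding partner of Rps19. Of the 50, 48 passed the filter on low levels. Rps16 and Rps27 did not, because their probe sets read between 2.44 and 2.66 and between 2.98 and 3.93 on the 12 arrays, under the required log2 level of 5.

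Messenger RNA was measured in whole preimplantation embryos (mouse strain ICR) on 12 Affymetrix Mouse Genome 430 2.0 arrays, 2 per group. Embryos treated with U0126, which blocks MEK and through it ERK, at 20 µM, were arrested with 4 cells at day 2.5. Embryos released from that arrest were collected at day 3.5, with 8 cells, and at day 4.5, as morulae to blastocysts. Controls were collected at day 1.5, when they had 2 cells, at day 2.5, with 4 to 8 cells, and as morulae to blastocysts at day 3.5. The series compared these groups to ask what blocking ERK does to gene expression in the early cleavages. Each array received RNA amplified from 0.1 µg of total RNA, and the labels give neither the number of embryos behind an array nor a vehicle for the controls. The design speaks of 2 independent experiments, but no label says that the replicates came from separate cultures or animals, so the p-values reflect the spread of these arrays alone, part of which may be technical.

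A ribosome is built from ribosomal RNA and about one copy of each ribosomal protein, so the messages of these proteins are usually made in concert. Many of them begin with a run of pyrimidines at the very start of the message, the terminal oligopyrimidine (TOP) tract, through which the kinase mTOR controls their translation. The mouse oocyte stocks ribosomes and messages for the first cleavage, and the embryo makes new ribosomes only after its own genome becomes active at the 2-cell stage.

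To show what the promoters of these genes look like, the stretch from 60 bases before to 10 bases after the transcription start was read from RefSeq (GRCm38.p6). It is given for 8 genes: 5 of the canonical subunits with large rises described below, Rpl39, whose level passed no test, and the paralogs Rpl22l1 and Rpl39l. Not shown is Rpl27, which rose more than Rps18 and whose promoter has neither a start tract nor the ETS core defined next. Capitals mark a pyrimidine tract of at least 5 bases, counted from a C within 5 bases of the start, or the core CCGGAAG bound by ETS-family factors, some of which ERK phosphorylates. The pyrimidine run itself may begin before the capitals, as in Rpl14.
Rps6, chr4:86857358-86857427, minus strand: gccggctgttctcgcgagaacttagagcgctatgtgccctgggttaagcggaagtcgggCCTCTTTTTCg
Rpl14, chr9:120571457-120571526, plus strand: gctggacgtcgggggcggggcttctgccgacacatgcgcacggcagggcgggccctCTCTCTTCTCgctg
Rpl12, chr2:32961652-32961721, plus strand: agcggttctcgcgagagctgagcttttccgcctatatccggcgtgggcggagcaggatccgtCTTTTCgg
Rps18, chr17:33955656-33955725, minus strand: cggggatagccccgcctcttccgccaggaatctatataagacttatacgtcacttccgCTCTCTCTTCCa
Rpl37, chr15:5116553-5116622, plus strand: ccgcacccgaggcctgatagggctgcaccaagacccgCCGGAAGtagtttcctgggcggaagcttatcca
Rpl39, chrX:37085213-37085282, minus strand: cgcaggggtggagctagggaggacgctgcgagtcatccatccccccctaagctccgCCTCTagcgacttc
Rpl22l1, chr3:28805448-28805517, plus strand: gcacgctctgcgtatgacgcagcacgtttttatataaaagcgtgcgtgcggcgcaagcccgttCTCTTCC
Rpl39l, chr16:10170168-10170237, plus strand: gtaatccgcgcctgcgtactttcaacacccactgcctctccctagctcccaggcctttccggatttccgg

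RefSeq listed 52 promoters for 44 of the 50 genes, each 300 bases long (250 before and 50 after the start). A pyrimidine tract at the start was present in 40.4% of them, against 18.3% of all 32841 promoters in the table. The ETS core CCGGAAG, searched on both strands over the 300 bases, was in 40.4% of them, against 8.86% of all promoters. The GC box GGGCGG was in 53.8%, against 35.7% of all, and TATAAA in 11.5%, against 13.6% of all. Matches of different motifs may share bases, and a match is only a string of letters, not a site shown to be bound. A pyrimidine run with no C within 5 bases of the listed start, as in Rpl4, was not counted. A run that begins farther out but continues past such a C, as in Rpl14, was counted from that C. The shares with a start tract therefore depend on where RefSeq places the start.

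Values below are levels in log2(intensity + 1), and differences are in log2 with a standard error from limma. A gene was called higher or lower where its Benjamini-Hochberg adjusted p, taken over all 9929 genes tested, was under 0.05. Different probe sets do not read on a shared scale, so the genes are not ranked by level. The number of arrays limits the precision, and the median standard error of a difference was 0.27 for these genes and 0.35 for all genes. With 2 arrays on each side, 0.333 is the smallest 2-sided p of an exact test, which was therefore not used.

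Replicate arrays had Pearson's r between 0.955 and 0.980 over the genes tested. The 2-cell gene Zfp352 averaged 8.55 under U0126, 9.62 at released day 3.5 and 5.72 at released day 4.5, and 11.13, 5.74 and 3.51 at control days 1.5, 2.5 and 3.5, so the released day 3.5 embryos carried more of it than control day 2.5 embryos; its part in the results was not tested. The trophectoderm keratin gene Krt8 averaged 14.42 at released day 4.5 and 13.41 at control day 3.5. Krt18 (13.81, against 12.36), Cdx2 (10.16, against 9.66) and Sox2 (8.09, against 8.06) were also higher at released day 4.5. Nanog (10.05, against 11.09), Pou5f1 (10.09, against 11.09) and Tfap2c (11.38, against 11.45) were lower. At released day 3.5 Krt8 averaged 13.18, against 9.59 at control day 2.5. The summed intensity of 7 morula and blastocyst markers was 20300 to 22700 at released day 3.5. That sum was 6038 to 7659 at control day 2.5 and 18890 to 31920 at control day 3.5. The part of these markers in the results was not tested. Of the markers of other cells that the embryos could carry along, 0 of 4 cumulus and granulosa and 0 of 3 sperm genes reached 5 on any array. One oviduct gene, Ovgp1, and 1 of 4 blood and immune genes, Cd68, did. In bulk RNA of whole embryos, fewer cells of a type and less RNA per cell cannot be told apart.

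As a group the genes stepped up between the 2-cell stage and day 2.5, and in controls 0 of them passed a test for a further change. The median of the 48 genes was 12.24 and 11.89 on the arrays of control day 1.5, 13.77 and 13.65 at control day 2.5 and 13.62 and 13.66 at control day 3.5. In the treated series it was 13.52 and 13.40 under U0126 at day 2.5, 13.84 and 13.69 at released day 3.5 and 13.74 and 13.50 at released day 4.5. Control day 1.5 lay apart, and every other array lay above both of its arrays. Of the 48 genes, 14 averaged over 14 under U0126, 16 at released day 3.5 and 16 at released day 4.5, against 2 at control day 1.5, 16 at control day 2.5 and 17 at control day 3.5. The highest level of any named gene on an array was between 14.77 and 15.21, so the brightest of these genes sat near the top of the range.

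**Figure D1:**
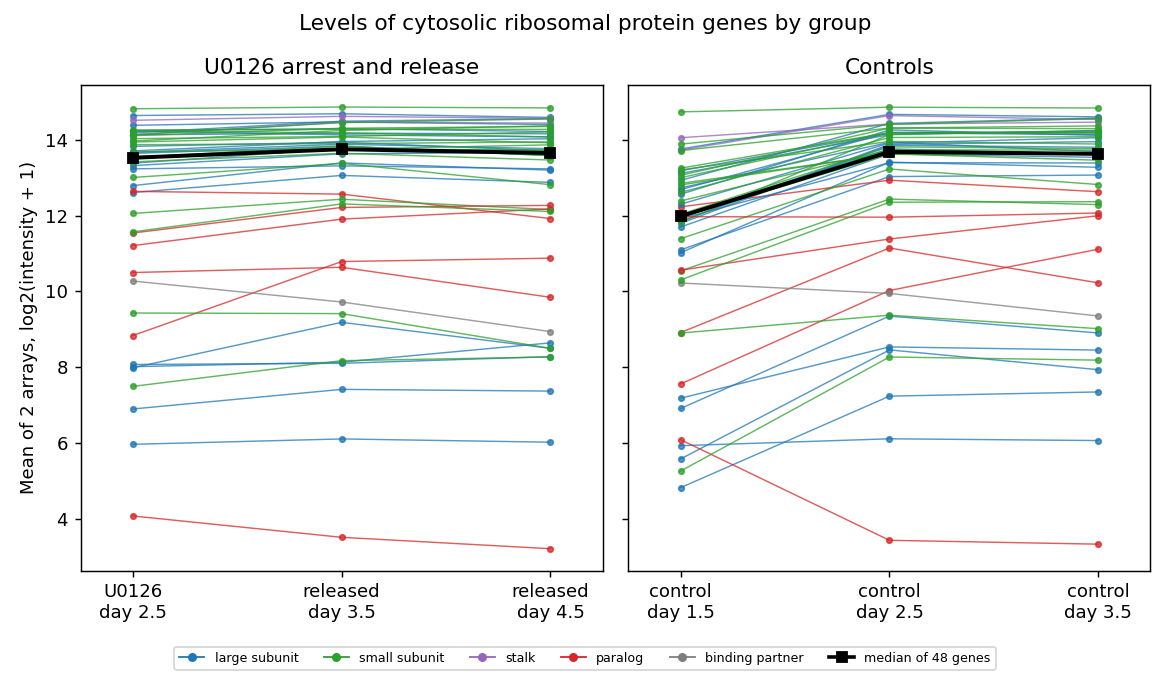
Mean level of 2 arrays, in log2(intensity + 1), of the 48 tested ribosomal protein genes, coloured by role, in U0126-treated and released embryos (left) and controls (right), with the median in black. The median is lowest at control day 1.5 (11.98) and between 13.53 and 13.75 in the other 5 groups, and the paralog Rpl3l runs the other way.

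Between control day 2.5 and control day 1.5, 38 of the 48 genes rose and 1, Rpl3l, fell, where 28.0% of all genes tested rose and 27.4% fell. Their median difference was 1.40, a 2.64-fold rise, against 0.09 for all genes. Of the 41 canonical subunits tested, 35 rose and 0 fell, with a positive difference in all 41 and a median of 1.48. The small subunit had 16 of 19 higher (median 1.25), the large subunit 18 of 20 (median 1.66), and of the stalk proteins 1 rose, Rplp2.

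Rps6 encodes the small subunit protein whose phosphorylation follows mTOR and ERK signalling, and its promoter has a tract of 10 pyrimidines. It read 8.13 and 8.41 at control day 2.5, against 5.49 and 5.03 at control day 1.5. All arrays of the later day lay above those of the earlier one, and the rise of 3.01 ± 0.27 was the largest among these genes (adjusted p = 7.25e-06). The control day 1.5 values of Rps6 were close to 5, so the size of its rise rests on signal near background. Rps18, a protein of the small subunit head, read 14.30 and 13.99 at control day 2.5, against 12.10 and 11.56 at control day 1.5 (2.32 ± 0.27, adjusted p = 4.40e-05). Rps3, which sits at the entry of the messenger RNA channel, read 14.16 and 13.97, against 13.19 and 12.04 (1.45 ± 0.34, adjusted p = 0.00390). For Rps19, whose human counterpart is mutated in Diamond-Blackfan anaemia, the levels were 12.73 and 12.15 at control day 2.5, against 11.05 and 10.04 at control day 1.5 (1.90 ± 0.38, adjusted p = 0.00164). Rpsa, which is also known as the laminin receptor, read 13.60 and 13.65, against 12.03 and 11.89 (1.66 ± 0.24, adjusted p = 1.54e-04). Neither array of the later day overlapped the earlier day for any of these genes.

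In the large subunit, Rpl27 read 13.40 and 13.43 at control day 2.5, against 11.15 and 10.89 at control day 1.5 (2.39 ± 0.24, adjusted p = 1.39e-05). Rpl12, at the base of the stalk where elongation factors dock, read 7.40 and 7.08, against 4.86 and 4.79 (2.41 ± 0.25, adjusted p = 1.96e-05). Both control day 1.5 values of Rpl12 were under 5, so the size of its rise rests on signal near background. Rpl14 read 8.07 and 8.84 at control day 2.5, against 6.74 and 4.42 at control day 1.5 (2.88 ± 0.60, adjusted p = 0.00205), with a gap of 2.31 between the 2-cell arrays. The lower of these 2-cell values was under 5, so the size of this rise also rests in part on signal near background. Rpl37 read 9.19 and 9.51, against 7.10 and 6.72 (2.44 ± 0.39, adjusted p = 3.27e-04). Rpl11, which with its partner Rpl5 can bind Mdm2 and stabilise p53, read 13.26 and 12.80, against 11.75 and 10.44 (1.93 ± 0.41, adjusted p = 0.00234). Rpl38, known from the Tail-short mouse for its part in translating Hox messages, read 13.74 and 13.79, against 12.26 and 11.73 (1.77 ± 0.26, adjusted p = 1.85e-04). Again no array of the later day overlapped the earlier day.

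Some subunits had a small step or none that passed. Rps29 read between 14.63 and 14.89 on all 12 arrays and differed by 0.12 ± 0.23 at this step (adjusted p = 0.674). This probe set lay at or near the highest level of any named gene on the arrays, and the dimmer probe sets of Rps29 differed by 0.78 and 0.56, so its own small difference is not read as a lack of change. Rplp0, the scaffold of the stalk, read 14.69 and 14.15 at control day 2.5, against 14.42 and 13.70 at control day 1.5 (0.36 ± 0.39, adjusted p = 0.453). These levels also lay near the top of the range, so this difference is not read as a lack of change either. Rplp2, an acidic stalk protein that recruits elongation factors, read 14.86 and 14.42, against 14.21 and 13.25, and rose by 0.91 ± 0.34 (adjusted p = 0.0388). This call of Rplp2 did not hold when control day 2.5 replicate 1 (0.209) or control day 1.5 replicate 2 (0.294) was left out, or with no filter on low levels (0.0592). Rpl35, beside the exit of the peptide tunnel, rose by 0.91 ± 0.23 (adjusted p = 0.00540), and Rps20 had a difference of 0.52 ± 0.23 (adjusted p = 0.0787, and 0.0406 with the replicate number as a block). Rps20 likewise read near the top of the range, and its other tested probe set differed by 0.80. The dim probe set of Rpl39 read between 5.91 and 6.29 on all 12 arrays, with a difference of 0.18 ± 0.24 (adjusted p = 0.548).

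The remaining canonical subunits that did not pass were Rps25 (0.47 ± 0.48, adjusted p = 0.432) and Rpl27a. Rpl27a read 7.79 and 9.29 at control day 2.5, against 6.70 and 7.67 at control day 1.5 (1.35 ± 0.996, adjusted p = 0.275, and 0.00708 with the replicate number as a block). In all 6 groups the second replicate of Rpl27a lay above the first, by at least 0.97. Both replicates of the later day lay above both of the earlier day.

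**Figure D2:**
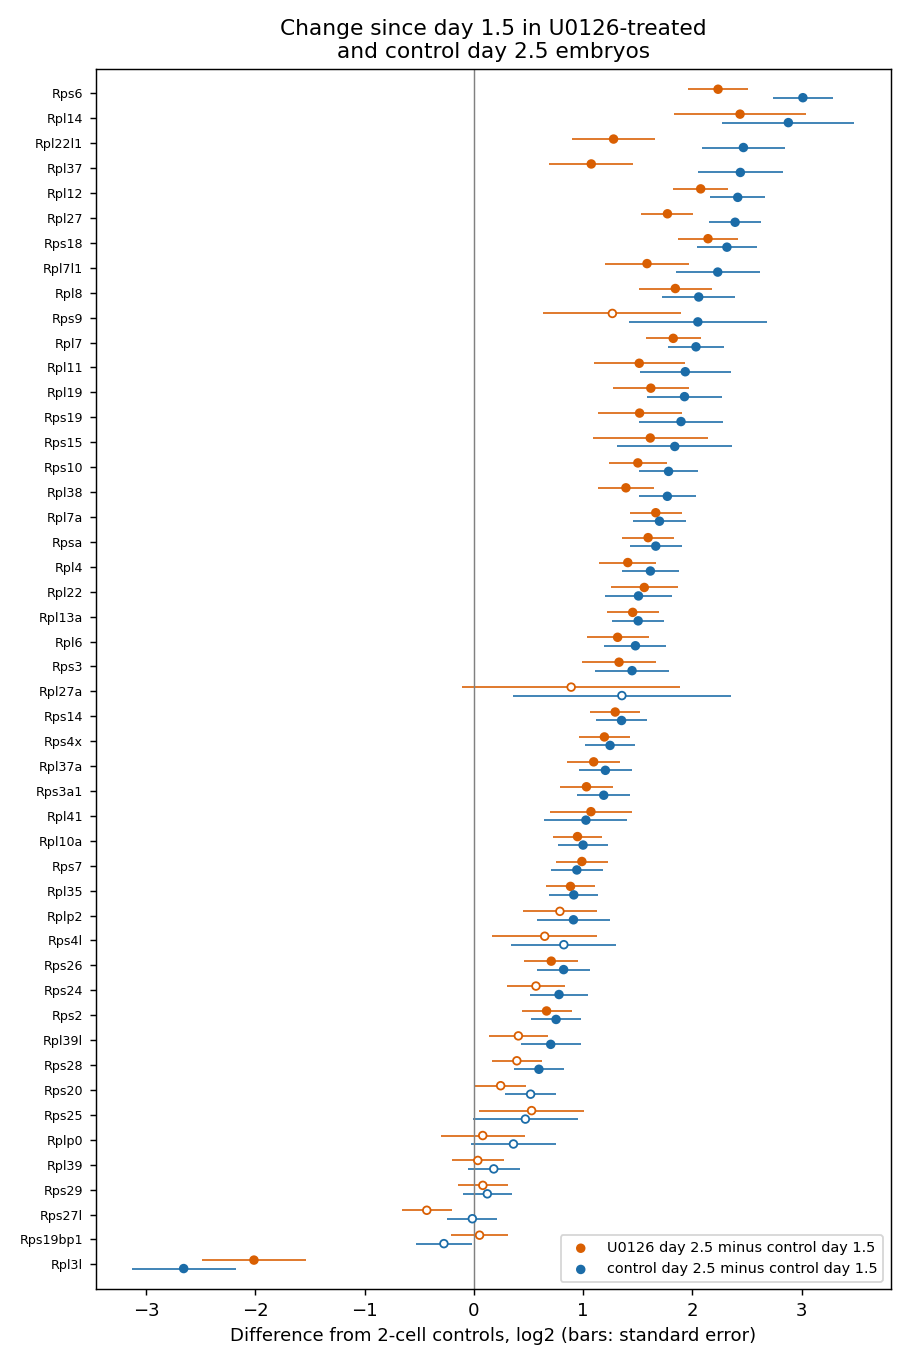
Difference from control day 1.5 in log2 for each of the 48 genes, under U0126 at day 2.5 (orange, upper point) and in controls at day 2.5 (blue, lower point), with standard errors; filled points passed the adjusted p of 0.05 and open points did not. Rps6 (2.23 under U0126, 3.01 in controls) stands at the top and Rpl3l (-2.01 and -2.66) at the bottom.

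The paralogs did not move as 1 group: 3 of 6 rose, 1 fell and 2 did not pass. Rpl22l1, which Rpl22 represses in mouse cells, read 9.96 and 10.09 at control day 2.5, against 8.04 and 7.07 at control day 1.5 (2.47 ± 0.38, adjusted p = 2.55e-04). Its partner Rpl22 rose by 1.51 ± 0.31 (adjusted p = 0.00172). Rpl7l1, related to Rpl7 and involved in large subunit assembly, read 11.30 and 11.00, against 9.51 and 8.32 (2.23 ± 0.38, adjusted p = 5.65e-04). Rpl7 itself rose by 2.03 ± 0.25 (adjusted p = 6.35e-05). Rpl39l, best known from male germ cells, read 12.99 and 12.89, against 12.57 and 11.90 (0.70 ± 0.27, adjusted p = 0.0481). The call of Rpl39l was lost without control day 1.5 replicate 2 (adjusted p = 0.293), without either control day 2.5 array (0.166 and 0.112) and with probe sets without a suffix (0.0577).

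Rpl3l, the striated-muscle paralog of Rpl3, ran against the rest and read 3.53 and 3.34 at control day 2.5, against 6.76 and 5.41 at control day 1.5 (-2.66 ± 0.48, adjusted p = 7.47e-04). Its control day 2.5 values were under 5, so the size of the fall rests on signal near background. Rps27l, a target of p53, read 11.95 and 11.97, against 12.03 and 11.92 (-0.01 ± 0.23). Rps4l, a further gene of the S4 family, read 11.82 and 10.95, against 11.12 and 10.002, and did not pass (0.82 ± 0.48, adjusted p = 0.17, and 0.0119 with the replicate number as a block). Its X-linked partner Rps4x rose by 1.25 ± 0.23 (adjusted p = 9.78e-04). Rps19bp1 read 9.97 and 9.93, against 10.24 and 10.21 (-0.27 ± 0.26, adjusted p = 0.394), with both later arrays below both earlier ones.

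Canonical genes with a start tract had a median rise of 1.70 (17 genes, 15 called), and those without 1.45 (19 genes, 17 called). Those with the ETS core had a median rise of 1.35 (19 genes) and those without 1.51 (17 genes). These medians are descriptions without a test, over genes that share the same arrays.

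The step could be read from further probe sets. In a fit over all probe sets, 68 of 92 tested probe sets of these genes rose and 1 fell at this step, where 27.2% of all probe sets rose. Of 100 tested probe sets that carry several symbols, a ribosomal protein among them, 78 rose and 0 fell. For some genes the probe sets disagreed in size. The brightest probe set of Rps3 rose by 1.45 and a dimmer one by 4.11, and the 6 probe sets of Rps10 differed by between -0.46 and 1.93. Of the probe sets used, 13 had the suffix for cross-hybridisation to other transcripts (_x_at), 2 the suffix for shared probes (_s_at) and 19 the suffix for several transcripts of a gene (_a_at), and ribosomal protein genes have many near-identical pseudogene copies. Among the 22 genes that could be read from a probe set without any suffix, 11 rose and 1 fell, with a median of 1.12.

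Genes that work with the ribosome were counted for comparison. Of 17 tested TOP messages outside the ribosome, 11 rose (64.7%) and 0 fell at this step, with a median of 0.90, where 28.0% of all genes rose and 27.4% fell. Eef1b2, a subunit of the exchange factor of translation elongation, averaged 13.85 at control day 2.5, against 11.02 at control day 1.5 (2.83 ± 0.24, adjusted p = 4.97e-06), and Eif3l of the initiation factor eIF3 rose by 2.76 ± 0.24 (adjusted p = 5.79e-06). Of 32 ribosome assembly and export factors, 10 rose (31.2%, near the share of all genes) and 1 fell (3.12%), with a median of 0.52. Among them were Tsr2, the escort of Rps26, with 2.70 ± 0.38 (adjusted p = 1.48e-04), Wdr12 with 2.33 ± 0.30 (adjusted p = 7.36e-05) and the kinase gene Riok1 with -1.76 ± 0.32 (adjusted p = 7.86e-04). Fau, which encodes the small subunit protein S30 fused to a ubiquitin-like protein, rose by 1.66 ± 0.46 (adjusted p = 0.0105). Of 5 tested genes for S6 kinases and their activators, 1 rose and 2 fell, too few to set against the shares of all genes: Rptor, the partner of mTOR, had 1.12 ± 0.37 (adjusted p = 0.0245), Mtor had -1.69 ± 0.40 (adjusted p = 0.00447) and Rps6ka6, of the RSK kinases that ERK activates, had -3.24 ± 0.45 (adjusted p = 1.36e-04).

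The next step in controls brought no call. Between control day 3.5 and control day 2.5, 0 of 48 genes rose and 0 fell by limma, while 13.3% of all genes rose and 8.28% fell; 3 of the 48 (6.25%) had an unadjusted p under 0.05, against 35.4% of all genes. The median difference was -0.03, against 0.09 for all genes, and the 95% interval of the difference lay within 1 log2 unit of 0 for 37 of 48 genes (77.1%), against 23.9% of all genes. The differences nearest to a call were in paralogs. Rpl22l1 read 11.25 and 10.98 at control day 3.5, against 9.96 and 10.09 at control day 2.5 (1.09 ± 0.38, adjusted p = 0.0621), and Rpl7l1 read 9.98 and 10.48, against 11.30 and 11.00 (-0.92 ± 0.38, adjusted p = 0.113). The arrays did not overlap for either. Among canonical genes the differences ran from -0.52 to 0.16. These differences and intervals are those of the brightest probe sets, some of them near the top of the range. Dimmer probe sets of some genes differed more. One of Rps3 differed by -1.75 (brightest 0.02) and one of Rpl37a by -1.27 (brightest -0.25). In the other direction, one of Rpl22 differed by 0.83 (brightest 0.02).

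Embryos held at 4 cells by U0126 also lay above the 2-cell level. Against control day 1.5, 33 of the 48 genes were higher under U0126 and 1, Rpl3l, was lower, where 28.1% of all genes were higher and 22.0% lower. The median difference was 1.23, or 2.35-fold, against 0.18 for all genes. This comparison and the control step share the control day 1.5 arrays. Of the 38 genes that rose in controls, the U0126 mean lay between the control day 1.5 and control day 2.5 means for 35 and above the control day 2.5 mean for 3. It covered a median of 87% of the control rise, from 44% for Rpl37 to 105% for Rps7. These 38 genes were chosen by that same control rise, which favours a U0126 mean below control day 2.5. The matching share over all genes was not computed, so these values are a description only.

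Large rises over the 2-cell level under U0126 were those of Rpl14 (2.44 ± 0.60, adjusted p = 0.00662), Rps6 (2.23 ± 0.27, adjusted p = 8.24e-05), Rps18 (2.14 ± 0.27, adjusted p = 1.09e-04), Rpl12 (2.08 ± 0.25, adjusted p = 8.20e-05) and Rpl8 (1.84 ± 0.33, adjusted p = 0.00104). Rpl7, Rpl27 and Rpl7a had 1.82, 1.77 and 1.66. Rpl3l read 4.74 and 3.41 under U0126, against 6.76 and 5.41 at control day 1.5 (-2.01 ± 0.48, adjusted p = 0.00503). The 41 canonical genes had a positive difference throughout, and 31 of them passed. With only the 4 arrays of these groups in the fit, 21 of the 48 genes were higher.

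Set directly against control day 2.5, U0126-treated embryos had 1 lower gene, Rpl37, and 0 higher of 48, where 9.22% of all genes were higher and 4.71% lower. Rpl37 read 7.41 and 8.56 under U0126, against 9.19 and 9.51 at control day 2.5 (-1.36 ± 0.39, adjusted p = 0.0412). Both treated arrays lay below both controls, but the treated arrays were 1.15 apart. The call was lost without U0126 replicate 1 (adjusted p = 0.227), without control day 2.5 replicate 1 (0.112) or replicate 2 (0.185) and without the filter on low levels (0.0859), and it held without U0126 replicate 2 (0.0109). With only the 4 arrays of these groups in the fit, 0 of the 48 genes and 0 of all genes passed, and 2 of the 48 had an unadjusted p under 0.05.

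The other differences ran from -1.19 for Rpl22l1 to 0.64 for Rpl3l and were mostly below 0. The median was -0.19, against 0.11 for all genes, and 42 of 48 differences were negative (87.5%), against 42.7% of all genes. Both U0126 arrays lay below both control arrays for 16 of the 48 genes (33.3%), where 21.2% of all genes did so, and above both for 2 genes (4.17%), where 32.3% of all genes did so. With each array centred on its median over all genes, which takes out the shift of all genes, the median difference was -0.39 and 2 genes were lower. The 95% interval lay within 1 log2 unit of 0 for 32 of the 48 genes (66.7%), against 27.4% of all genes. In the fit over probe sets 0 of 92 probe sets of these genes were higher and 1 was lower, where 4.76% of all probe sets were lower.

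**Figure D3:**
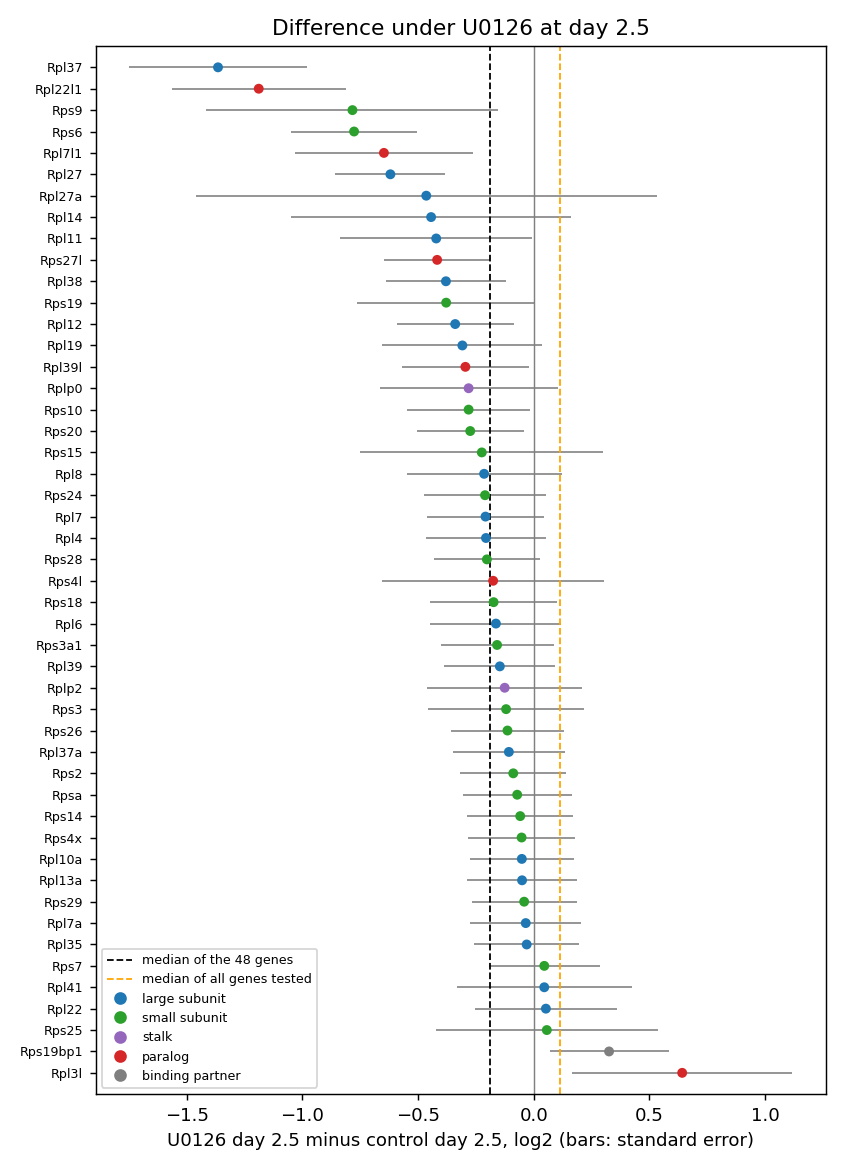
Difference between U0126 day 2.5 and control day 2.5 in log2 for each of the 48 genes, with standard errors, coloured by role and ordered by size; dashed lines mark the median of these genes (-0.19) and of all genes tested (0.11). Rpl37 (-1.36) is at the top and Rpl3l (0.64) at the bottom, and 42 of 48 points lie below 0.

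Several genes came near a call under U0126. Rpl22l1 read 8.78 and 8.90 under U0126, against 9.96 and 10.09 at control day 2.5 (-1.19 ± 0.38, adjusted p = 0.0619). Rps6 read 7.28 and 7.71, against 8.13 and 8.41 (-0.78 ± 0.27, adjusted p = 0.0871). Rpl27 read 12.65 and 12.94, against 13.40 and 13.43 (-0.62 ± 0.24, adjusted p = 0.115). For all 3 the treated arrays lay below the controls without overlap. Rps27l had a difference of -0.42 ± 0.23 (adjusted p = 0.270) and Rps19bp1 of 0.33 ± 0.26 (adjusted p = 0.460). The subunits Rpsa (-0.07), Rps3 (-0.12), Rplp2 (-0.13), Rplp0 (-0.28), Rpl38 (-0.38), Rps19 (-0.38) and Rpl11 (-0.42) did not pass. Probe sets of the same gene disagreed in size here too. A dimmer probe set of Rps3 differed by -1.32 and one of Rpl13a by -1.15, where the brightest of Rpl13a differed by -0.05. In the other direction, a dimmer probe set of Rps24 differed by 0.53 and its brightest by -0.21.

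Beyond the ribosome, 2 of 17 TOP messages (11.8%) were lower under U0126 and 0 higher (median -0.22), where 4.71% of all genes were lower. Eef1b2 averaged 12.64 under U0126, against 13.85 at control day 2.5 (-1.21 ± 0.24, adjusted p = 0.0102), and Hnrnpa1, an RNA-binding protein gene, had -1.07 ± 0.29 (adjusted p = 0.0376). Of 32 assembly factors 2 were lower (6.25%) and 0 higher, Efl1, the GTPase that removes Eif6 from the large subunit (-1.10 ± 0.29, adjusted p = 0.0335), and the small subunit kinase Riok2 (-0.92 ± 0.27, adjusted p = 0.0455). None of the 5 S6 kinase pathway genes passed by limma. The summed intensity of 7 morula and blastocyst markers was 2195 to 2554 under U0126, against 6038 to 7659 at control day 2.5. That of 4 blood and immune markers was 109.8 to 175.3, against 39.84 to 44.81, all through Cd68 (6.90, against 4.47), while Ptprc, Lyz2 and Hba-a1 were under 4 on average in every group; the part of either in the results was not tested.

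After release, few of these genes were called, though most differences were positive. Between released day 3.5 and U0126 day 2.5, 3 of 48 rose and 0 fell, where 13.7% of all genes rose and 14.5% fell, and with the replicate number as a block 5 rose, Rps4l (adjusted p = 0.0408) and Rps9 (0.0414) being added, while the calls over all genes grew to 3728, against 2798 without it. The median difference was 0.20, against -0.02 for all genes. Of the 48 differences 42 were positive, against 4844 of all 9929 genes. Both released arrays lay above both U0126 arrays for 23 of the 48, against 3035 of 9929. They lay below both for 2 of the 48, against 3233 of 9929. Rpl22l1 read 10.47 and 11.10 at released day 3.5, against 8.78 and 8.90 under U0126, and rose by 1.95 ± 0.38 (adjusted p = 0.00379), a call that held without any 1 of the 4 arrays. Rpl37 read 9.29 and 9.08, against 7.41 and 8.56 (1.20 ± 0.39, adjusted p = 0.0408). It was lost without released replicate 1 (0.156) or 2 (0.104) and without U0126 replicate 1 (0.25), with centred arrays (0.0527) and without the filter (0.0835). Rps27l read 12.25 and 12.19, against 11.55 and 11.53 (0.67 ± 0.23, adjusted p = 0.0487), and was lost without any 1 of the 4 arrays (adjusted p between 0.106 and 0.168) and with centred arrays (0.0639). Eef1b2 rose alongside by 1.29 ± 0.24 (adjusted p = 0.00324).

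Released day 3.5 embryos and control day 2.5 embryos are of like cell number but differ in the summed morula and blastocyst markers given above. Of the 48 genes, 0 were higher and 0 lower at released day 3.5 by limma, where 8.60% of all genes were higher and 4.01% lower. An unadjusted p under 0.05 was found for 0 of the 48, against 28.3% of all genes. The median difference was 0.00, against 0.09 for all genes, and 37 of 48 intervals lay within 1 log2 unit of 0, against 27.0% of all genes. Here and in the later comparisons, the values are those of the brightest probe sets, some of them near the top of the range. Dimmer probe sets were not read singly for released embryos. The median standard error was also smaller for these genes (0.27, against 0.35), which narrows their intervals. The canonical genes ran from -0.43 to 0.35. Rps6 read 8.30 and 8.04 at released day 3.5, against 8.13 and 8.41 at control day 2.5, and the arrays overlapped. Rpl22l1 had the largest difference, 0.77 ± 0.38 (adjusted p = 0.214).

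Between released day 4.5 and released day 3.5, of the 48 genes 0 rose and 0 fell by limma, with 2 at an unadjusted p under 0.05 (29.0% of all genes), where 7.37% of all genes rose and 6.38% fell, and the median was -0.06. With the replicate number as a block 1 gene fell, Rps19bp1. It read 9.02 and 8.86 at released day 4.5, against 9.86 and 9.58 at released day 3.5 (-0.78 ± 0.26, adjusted p = 0.0693, and 0.0428 with the block). Of 32 assembly factors 5 fell (15.6%, against 6.38% of all genes) and 0 rose, with a median of -0.56, among them Tsr2 (-1.62 ± 0.38, adjusted p = 0.0199) and Wdr12 (-1.25 ± 0.30, adjusted p = 0.0206).

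At the last stage, released day 4.5 and control day 3.5 embryos had 0 of 48 genes higher and 0 lower by limma, with 1 at an unadjusted p under 0.05 (20.8% of all genes), where 3.85% of all genes were higher and 2.03% lower. The median was -0.02 and 35 of 48 intervals (72.9%) lay within 1 log2 unit of 0, against 31.9% of all genes. The lowest difference was that of Rpl39l, which read 11.89 and 11.96 at released day 4.5, against 12.51 and 12.75 at control day 3.5 (-0.71 ± 0.27, adjusted p = 0.167), without overlap. The highest was that of Rpl14 (0.71 ± 0.60, adjusted p = 0.708). The step from released day 3.5 to day 4.5, less that from control day 2.5 to day 3.5, passed for 0 of the 48 genes by limma, with 0 at an unadjusted p under 0.05 (17.8% of all genes), where it was higher for 1.02% and lower for 1.31% of all genes.

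Most genes followed the median course of the group over the 12 arrays, and a few did not. As a description over arrays that share groups, Pearson's r with the median profile of the 48 genes was lowest for Rpl3l (-0.85), Rps19bp1 (-0.45), Rps25 (0.10), Rps27l (0.20) and Rpl27a (0.31). Rps19bp1 averaged 10.27 under U0126, 9.72 at released day 3.5 and 8.94 at released day 4.5, and 10.22, 9.95 and 9.35 at control days 1.5, 2.5 and 3.5.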

How the data were processed

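The labels' protocols give biotin-labelled RNA from 2 amplification rounds. The deposited values are linear intensity values per probe set. Per the submitters' processing notes they were made with GCRMA, and GCOS 1.2 and GeneSpring 7.3 stand in the design text; other steps are not given in the sources used here. The file holds 45101 probe sets, of which 34945 carry 1 gene symbol in the platform table, 932 several and 9160 none, with 64 controls. Names were checked through Entrez IDs against RefSeq (GRCm38.p6; 34741 matched, 0 changed).

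Each gene was its brightest one-symbol probe set, as log2(intensity + 1), so fold changes of dim genes are understated. Genes at 5 or more on at least 2 arrays were tested (9929). All 12 arrays entered 1 limma fit (3.58.1, R 4.3.3) with a mean per group, 6 residual and 4.51 prior degrees of freedom, 8 differences and 1 interaction. The script was tested on simulated data. Samples with the same replicate number deviated together in 15 of 15 pairs of groups (r from 0.125 to 0.417), and the design text names 2 independent experiments, so a fit with the replicate number as a block was also made. Further alternatives changed the pseudocount (16), filter, centring, probe set choice and samples.

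The members and the lists were chosen with earlier results of these data known. Named were the 8 largest rises and falls that passed without overlap, the 5 brightest and 5 dimmest genes, subunits with known special roles, the paralogs with their partners, the 5 profiles least like the median, and genes whose probe sets disagreed. From the other lists at most 4 genes per comparison were named. Probe sets with several symbols were counted and not named. Promoter sequences are from RefSeq (GRCm38.p6).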

Additional observations from a re-analysis of the deposited data

Results flagged for a closer look

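In 2 genes the arrays moved in opposite directions in the last step after release and in the matching control step. Rpl14 read 8.53 and 8.75 at released day 4.5, against 7.74 and 8.53 at released day 3.5, while it read 7.96 and 7.91 at control day 3.5, against 8.07 and 8.84 at control day 2.5. The difference of the steps was 1.03 ± 0.85 and did not pass (limma, adjusted p = 0.598). Rpl13a read 14.38 and 14.43 at released day 4.5, against 14.48 and 14.47 at released day 3.5, while it read 14.60 and 14.55 at control day 3.5, against 14.38 and 14.49 at control day 2.5. The difference of its steps was -0.21 ± 0.34 (adjusted p = 0.818). Neither difference was past the threshold.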

How the results depend on the processing

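Of 192 counts and medians under alternatives that kept all samples or changed the fit, 161 stayed within the limits of the main value and 31 moved. Changes of sign were not counted apart. The median for released day 3.5 minus control day 2.5 changed sign, from 0.004 in the main fit to -0.063 for probe sets without a suffix. It was negative with centred arrays too, and ran from -0.051 to 0.063 without 1 array at a time. The medians for control day 3.5 minus control day 2.5 (-0.091 to 0.005) and released day 4.5 minus control day 3.5 (-0.103 to 0.005) also took both signs that way. The 77 calls of these genes gave 722 adjusted p-values under the alternatives, of which 648 were past the threshold and 74 were not; 24 of the calls were lost under at least 1 alternative.

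For control day 2.5 minus control day 1.5, the mean of all probe sets gave a median of 1.16, probe sets without a suffix 11 higher with a median of 1.12, and canonical subunits alone 0 lower. For control day 3.5 minus control day 2.5, centring gave a median of -0.24, a pseudocount of 16 and a fit on 4 arrays gave 1 higher each, and the mean of probe sets and those without a suffix 1 lower each. For U0126 day 2.5 minus control day 2.5, centring and a pseudocount of 16 gave 2 lower, centring a median of -0.39, probe sets without a suffix -0.29, and a fit on 4 arrays 0 lower. Against control day 1.5, U0126 gave 2 lower without the filter, a median of 0.99 with the mean of probe sets, 9 higher with a median of 0.77 for probe sets without a suffix, 21 higher on 4 arrays and 0 lower among canonical subunits. For released day 3.5 minus U0126 day 2.5, centring, 4 arrays and canonical subunits gave 1 higher each, probe sets without a suffix 0, and the replicate block 5. Centring gave released day 3.5 minus control day 2.5 a median of -0.20. For released day 4.5 minus released day 3.5, a pseudocount of 16, no filter, the mean of probe sets and the replicate block gave 1 lower each, and the mean of probe sets 1 higher.

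Without 1 array at a time, the control step to day 2.5 had 29 to 37 higher and 1 lower with a median from 1.18 to 1.63, U0126 against control day 1.5 had 25 to 34 higher and 1 lower (0.87 to 1.52), U0126 against control day 2.5 had 0 to 1 lower and 0 higher (-0.25 to -0.10), and released day 3.5 against U0126 had 1 to 2 higher and 0 lower (0.09 to 0.23). The other comparisons kept 0 calls, with medians from -0.09 to 0.01 for control day 3.5, from -0.05 to 0.06 for released day 3.5 against control day 2.5, from -0.16 to -0.02 for released day 4.5 against released day 3.5 and from -0.10 to 0.01 against control day 3.5. A lone array is assumed to vary like the other groups. With the replicate block the control step to day 2.5 had 41 higher and U0126 against control day 1.5 had 37, adding Rplp2 (adjusted p = 0.0190), Rps24 (0.0375), Rps4l (0.0376) and Rps9 (0.00188); beside these and the calls given in the text it changed no other call. Over all genes the block gave 2017 calls, against 1252 without it, for released day 3.5 and control day 2.5, 2163 against 1365 for the released step and 1017 against 584 for the last stage. The cause of these shifts was not tested. Signal near background limits Rpl3l, Rpl12, Rps16 and Rps27, and at control day 1.5 also Rps6 (5.49 and 5.03) and Rpl14 (4.42 on replicate 2).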

Other observations

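In some ribosomal protein genes the replicates kept 1 order in all 6 groups. In 16 of the 48 genes (33.3%) replicate 1 lay above replicate 2 in every group, against 12.8% of all 9929 genes tested, and in 2 (4.17%), Rpl27a and Rps25, replicate 2 lay above in every group, against 5.76%. Rps9 was higher in replicate 1 by a mean of 1.07, Rps15 by 0.85 and Rplp0 by 0.57, and Rpl27a was lower by 1.75. These genes were chosen after their values were seen, and what the replicate number stands for beyond the 2 experiments is not stated.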
